A study of Mus musculus with 12 samples.

Results

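The 10 genes described here encode Toll-like receptors and the proteins that carry their signal: *Tlr2*, *Tlr3*, *Tlr4*, *Myd88*, *Ticam1*, *Irak1*, *Irak2*, *Irak3*, *Irak4* and *Traf6*. They were taken by gene name from the 55471 genes listed for each library, and all 10 were found. They were chosen by the day 0 FPKM of *Tlr2* and *Irak3*, which were higher in *Snap29* knockout embryonic stem cells (ESCs), so the day 0 difference between genotypes is given below as a description, without a test.

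The cells were mouse J1 ESCs, a line of 129S4/SvJae origin grown without feeder cells, either wild type (WT) or carrying a CRISPR/Cas9 disruption of *Snap29*, a SNARE gene of membrane fusion (KO). The KO ESCs were 1 clone with an insertion in *Snap29*, and which clone gave the day 14 KO libraries is not given in the sources used here. Poly(A) RNA was sequenced at day 0, in undifferentiated ESCs kept with LIF, and at day 14, after 3 days in hanging drops without LIF and 11 days on plates, with 3 libraries in each of the 4 groups. The study calls these biological replicates, but nothing says whether each came from a separate differentiation, so the spread behind each p-value may be technical in part.

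Toll-like receptors recognise microbial products and some products of damaged cells. TLR2 acts at the cell surface with TLR1 or TLR6 on bacterial lipopeptides, TLR4 with MD-2 and CD14 on lipopolysaccharide, and TLR3 in endosomes on double-stranded RNA. TLR2 and TLR4 recruit the adaptor MYD88, which assembles IRAK4 with IRAK1 and IRAK2 and hands the signal to the ubiquitin ligase TRAF6 and on to NF-κB, whereas TLR3 uses TICAM1, also called TRIF, and TLR4 uses both adaptors. IRAK3, also called IRAK-M, lacks full kinase activity and is known in macrophages as a brake on this cascade.

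The genome around the starts of *Tlr2* and *Irak3*, the genes with the widest range between groups, is shown to give the letters that lie upstream of them. Sequence came from RefSeq on GRCm38.p6, the build also called mm10, for 9 of the 10 genes. Only bases outside every annotated exon are printed, both runs read 5′ to 3′ on the minus strand, and capitals mark a match to the κB pattern.

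*Tlr2*, chr3:83841768-83841858: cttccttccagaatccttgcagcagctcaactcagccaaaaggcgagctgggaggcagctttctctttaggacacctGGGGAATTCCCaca

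*Irak3*, chr10:120202196-120202380: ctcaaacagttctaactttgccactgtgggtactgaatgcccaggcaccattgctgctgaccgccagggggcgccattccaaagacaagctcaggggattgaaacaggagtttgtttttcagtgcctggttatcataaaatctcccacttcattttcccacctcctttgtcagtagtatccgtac

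The κB pattern searched, GGG, any 5 bases and CC on either strand, was found in 45.8% of the 32851 RefSeq windows of 250 bases before a gene start. It began 173 bases before the RefSeq start of *Tlr2*. RefSeq gives 2 starts for *Irak3*: the window before the outer start, part of which is printed above, held no match, and the window before the inner start held 1, in bases annotated as exon and not printed. Of the other windows, those of *Irak2* and *Myd88* held no κB match either, and that of *Myd88* held the only match to GAAA, any 2 bases and GAAA, an interferon-response pattern present in 2.98% of all windows. The remaining patterns searched on both strands were the GC box GGGCGG, present in 32.7% of windows, and the TATA box TATAAA, present in 12.4%. A match describes letters only.

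Levels are FPKM, fragment counts scaled by gene length and library depth, and the deposited values gave back whole fragments for every gene, 16638790 to 19226488 in each library. *Snap29* averaged 5.99 FPKM in WT and 0.561 in KO at day 0, and 9.06 and 2.02 at day 14. *Atrx*, a chromatin remodelling gene that was not targeted, averaged 12.6 FPKM in WT and 0.155 in KO at day 0, so a difference between genotypes cannot be assigned to *Snap29* alone. WT day 14 replicate 3 stood apart: across genes its Pearson correlation with the other WT day 14 libraries was 0.951 to 0.958 and with the KO day 14 libraries 0.951 to 0.958, whereas WT day 14 replicates 1 and 2 correlated at 0.971 with each other. Its *Atrx* level was 6.24 FPKM against 12.6 in each of the other 2 WT day 14 libraries. The day 14 changes of the 10 genes, and the counts and sums that it moved, are given with and without it.

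At day 0 the ESC marker list of 7 genes had sums of 1644 to 1746.5 FPKM for WT libraries, below the KO range of 1760 to 1869. Day 14 sums were still 489 to 653 FPKM for WT, again below the KO range of 663 to 722. *Pou5f1* was then at 107 FPKM in WT and 146 in KO. By limma, 4 of the 7 were higher and 2 lower in KO ESCs. After differentiation 0 of the 7 passed between genotypes, with 3 higher in KO at an unadjusted p under 0.05. Of 14 myeloid and blood markers, *Adgre1*, *Lyz2* and *Tyrobp* were at 0 in all day 0 libraries. The myeloid list summed to 45.6, 40.5 and 82.6 FPKM in WT day 14 replicates 1, 2 and 3 and to 75.3 to 88.7 in KO day 14 libraries, so that without WT replicate 3 all KO sums lay above the WT sums. Most of the sum was from *Cd68* and *Csf1r*, while the pan-leukocyte gene *Ptprc* averaged 0.0258 and 0.0179 FPKM. None of the 14 was at 0 throughout a day 14 group, and 0 of 9 tested passed between genotypes there in limma or voom, with 4 higher in KO at an unadjusted p under 0.05. Without WT day 14 replicate 3, 3 of the 9 were higher and 0 lower in KO, 33.3% against 13.8% of all genes. Marker lists of other cell types also differed at day 14, with no overlap between genotypes, with or without WT replicate 3. Trophoblast markers summed to 247 to 381 FPKM in WT and 138 to 163 in KO. Striated muscle markers summed to 32.2 to 100 FPKM in WT and 208 to 280 in KO. Mesenchyme markers summed to 88.1 to 102 and 65.3 to 74.5 FPKM, and endothelial markers to 29.4 to 57.9 and 23.3 to 25.7. The part of cell types in the day 14 levels was not tested. In bulk RNA, more cells of a type and more RNA per cell cannot be told apart.

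*Tlr2* had its highest level in KO ESCs and its lowest in WT ESCs. In WT it was 1.02, 0.654 and 0.883 FPKM at day 0 and 2.41, 2.63 and 2.99 at day 14. In KO it was 9.05, 8.91 and 8.02 FPKM at day 0 and 5.64, 5.39 and 4.79 at day 14. Ordered by level, KO day 0, KO day 14, WT day 14 and WT day 0 followed each other with no overlap between neighbouring groups. The counts behind these levels ran from 34 to 53 fragments in WT day 0 libraries and from 427 to 479 in KO day 0 libraries. The mean KO level was 10.2 times the WT level at day 0, a log2 change of 3.22 (SE 0.15) that ranked 15 among 19238 genes.

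**Figure D1:**
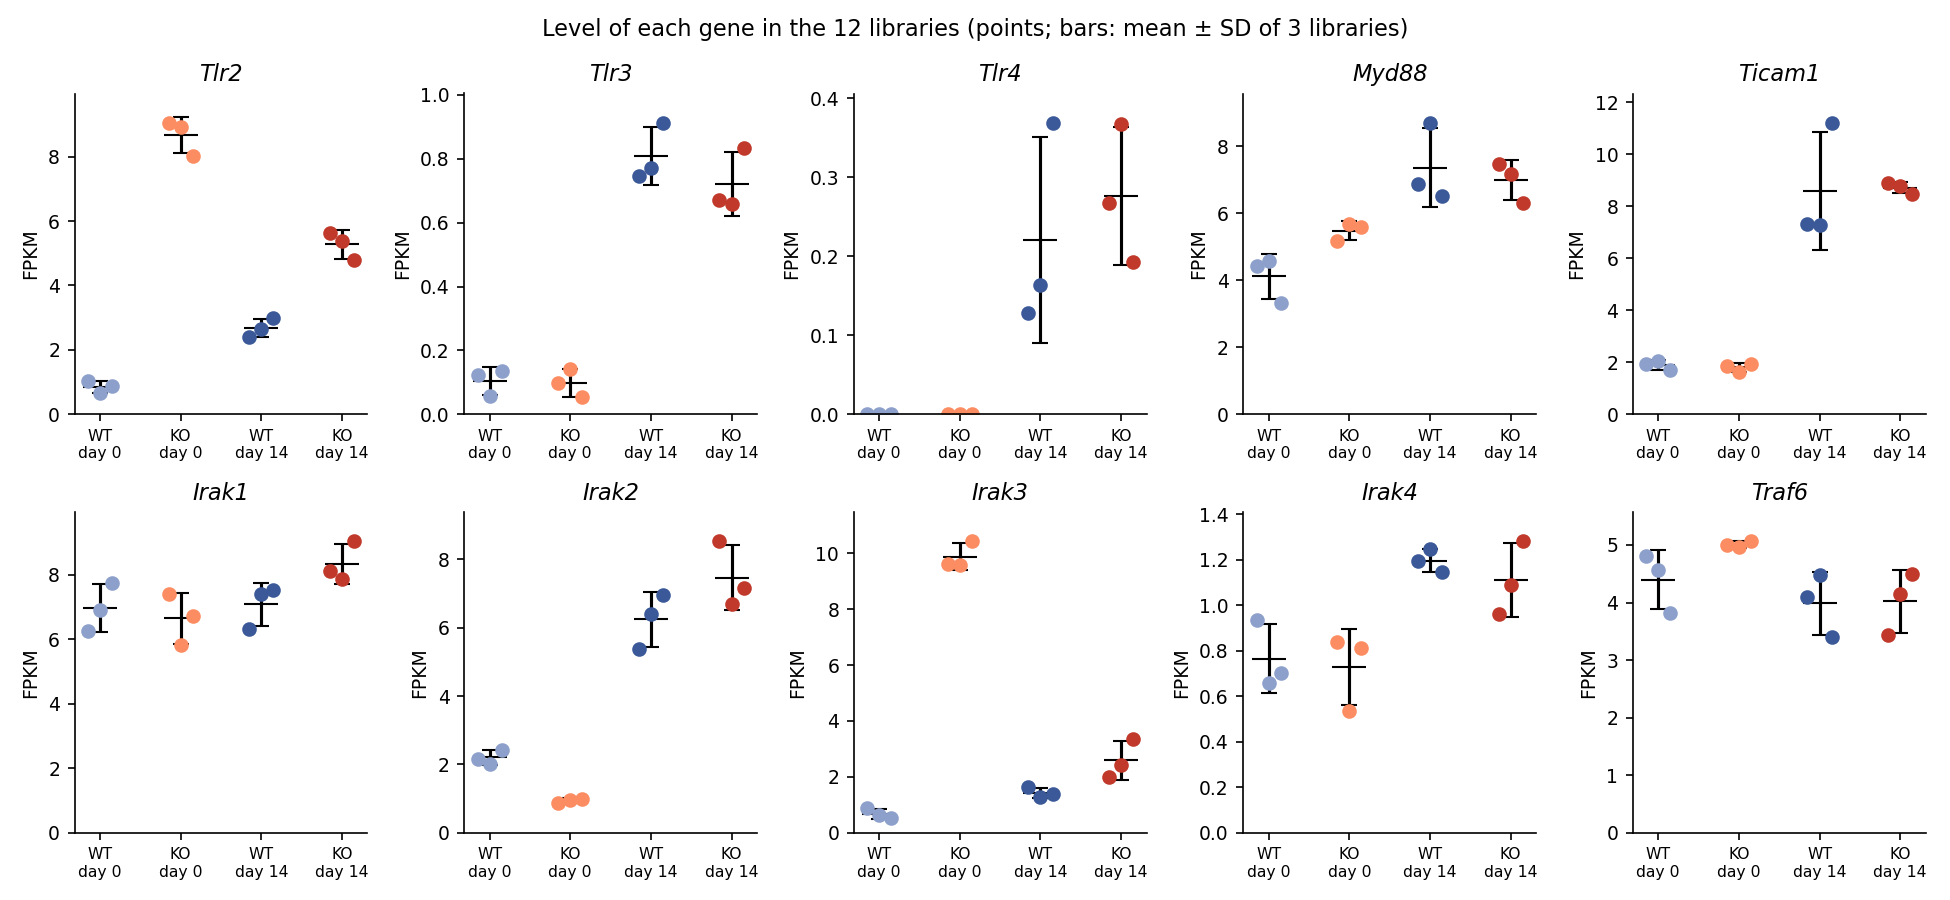
FPKM of each of the 10 genes (vertical axes, each on its own scale from 0) in the 3 libraries of WT and KO at day 0 and day 14 (points), with the mean ± SD of each group (bars). *Tlr2* and *Irak3* stand highest in KO at day 0, at 8.02 to 9.05 and 9.58 to 10.4 FPKM, and *Tlr4* is at 0 in all 6 day 0 libraries.

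*Tlr2* remained higher in KO at day 14, a comparison the choice of genes did not use. The mean was 5.27 ± 0.438 FPKM (SD, n = 3) in KO and 2.68 ± 0.292 (n = 3) in WT, and every KO library exceeded every WT library. The log2 change was 0.95 (SE 0.14, 95% interval 0.63 to 1.28), 1.97-fold on the FPKM means, with adjusted p = 0.0270 in limma on log2(FPKM + 0.1). An exact two-sided permutation test gave p = 0.1, the smallest that 3 against 3 libraries allow. The call was lost on leaving out any library other than WT day 14 replicate 3: adjusted p was 0.104 without WT replicate 1, 0.0940 without WT replicate 2, 0.129 without KO replicate 1, 0.137 without KO replicate 2 and 0.0872 without KO replicate 3. Without WT replicate 3 it was 0.0114, with a log2 change of 1.03.

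*Tlr3* was near the limit of detection in ESCs of both genotypes and was higher in every day 14 library. It was 0.123, 0.0557 and 0.136 FPKM in WT and 0.0985, 0.143 and 0.0544 in KO at day 0, from 5 to 13 fragments per library. After differentiation it was 0.745, 0.771 and 0.913 FPKM in WT and 0.671, 0.657 and 0.835 in KO. The log2 change from day 0 to day 14 was 2.17 (SE 0.26) in WT and 2.07 (SE 0.25) in KO. Only 2 WT and 1 KO day 0 libraries reached the 0.1 FPKM that a gene needed in 3 libraries to be tested, so it entered these comparisons through the day 14 libraries, where it is high, and the change is a description. Between genotypes at day 14 it gave a log2 change of -0.15 (95% interval -0.65 to 0.35, adjusted p = 0.718).

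*Tlr4* had no fragment in any of the 6 day 0 libraries, which allows up to 0.0314 FPKM in a library at 3 fragments. At day 14 it was 0.128, 0.164 and 0.369 FPKM in WT and 0.268, 0.368 and 0.193 in KO, from 13 to 41 fragments, and the genotypes overlapped. Against that floor in every day 0 library the rise was at least 7.18-fold in WT and at least 8.98-fold in KO. It entered these comparisons through the day 14 libraries alone, so no test of the rise is given. Its KO minus WT log2 change at day 14 was 0.28 (95% interval -0.62 to 1.18, adjusted p = 0.703). The highest WT value was that of replicate 3, without which all 3 KO values lay above the WT values and the log2 change was 0.59 (adjusted p = 0.283).

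Of the 9 other Toll-like receptors in the mouse, none reached the level needed for a test at day 0, and *Tlr12* had no fragment in any library. *Tlr2* therefore made up most of the summed FPKM of the 12 receptor genes in ESCs: 70.9% (range over libraries 68.2 to 73.5%) in WT and 97.7% (97.5 to 97.8%) in KO. Its day 14 share was 45.7% (43.4 to 48.1%) in WT and 60.1% (54.0 to 64.4%) in KO. *Tlr5*, the flagellin receptor, was the next highest at day 14, at 1.57 to 2.05 FPKM in WT and 2.02 to 2.85 in KO.

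The adaptors gave smaller differences. *Myd88* was 4.42, 4.59 and 3.33 FPKM in WT and 5.17, 5.69 and 5.58 in KO at day 0, with a log2 change of 0.42 (SE 0.13). The day 14 levels were 6.87, 8.71 and 6.51 FPKM in WT and 7.48, 7.18 and 6.31 in KO, and the groups overlapped (log2 change -0.07, 95% interval -0.41 to 0.27, adjusted p = 0.821). It rose with differentiation in WT (log2 change 0.83, SE 0.17, adjusted p = 0.00558, limma) and in KO (log2 change 0.34, SE 0.09, adjusted p = 0.0132). Without KO day 0 replicate 1 the KO rise had adjusted p = 0.0532.

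*Ticam1* was 1.94, 2.03 and 1.69 FPKM in WT and 1.87, 1.61 and 1.93 in KO at day 0. It was 7.30, 7.27 and 11.2 FPKM in WT and 8.88, 8.77 and 8.47 in KO at day 14, the 11.2 being WT replicate 3. The genotypes overlapped on both days, with a day 14 log2 change of 0.05 (95% interval -0.38 to 0.47, adjusted p = 0.898). The rise from day 0 was 4.55-fold in WT and 4.83-fold in KO on the FPKM means, and passed the test in both (log2 change 2.10, SE 0.19, adjusted p = 1.51e-04 and 2.21, SE 0.10, adjusted p = 3.03e-06).

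Among the IRAK genes, *Irak3* had the widest range. In WT it was 0.885, 0.631 and 0.532 FPKM at day 0 and 1.63, 1.26 and 1.38 at day 14. In KO it was 9.61, 9.58 and 10.4 FPKM at day 0 and 2.00, 2.43 and 3.34 at day 14. The order of groups was the one seen for *Tlr2*, again with no overlap between neighbours. At day 0 the mean KO level was 14.5 times the WT level, a log2 change of 3.70 (SE 0.16) that ranked 5 among 19238 genes, from 36 to 56 fragments per WT library and 615 to 677 per KO library.

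The gene span of *Irak3*, chr10:120141648-120202130 on the minus strand, overlaps *Tmbim4* and the long non-coding RNA *Gm47009* on the plus strand. Whether fragments were counted by strand is not given in the sources used here, so reads of overlapping exons may not be told apart. At day 0 *Tmbim4* averaged 8.26 FPKM in WT and 12.6 in KO, and *Gm47009* 0.0647 and 0.445. The part of these 2 genes in the *Irak3* level was not tested.

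At day 14 *Irak3* averaged 2.59 ± 0.686 FPKM (SD, n = 3) in KO and 1.42 ± 0.191 (n = 3) in WT, 1.82-fold, with all 3 KO libraries above all 3 WT libraries. The difference did not pass the test (log2 change 0.80, SE 0.23, 95% interval 0.26 to 1.33, adjusted p = 0.120, limma). Without WT day 14 replicate 3 the adjusted p was 0.0904. Among the other alternatives that kept all libraries, it passed with weights by the libraries' agreement (adjusted p = 0.0336), where 29.5% of all genes were called, and with 1 estimate of the spread for all 4 groups (adjusted p = 0.0303). It did not pass in the others, with adjusted p from 0.103 for a filter of 1 FPKM to 0.324 with a replicate block.

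*Irak2*, which sustains the signal after IRAK1, had the lowest ratio of KO to WT among the members in ESCs. It was 2.17, 2.01 and 2.44 FPKM in WT and 0.878, 0.948 and 1.00 in KO at day 0, so that KO held 42.7% of the WT mean (log2 change -1.14, SE 0.12). Differentiated cells had 5.38, 6.41 and 6.96 FPKM in WT and 8.54, 6.70 and 7.15 in KO, and 2 of the 3 KO values exceeded the WT range (log2 change 0.25, 95% interval -0.09 to 0.60, adjusted p = 0.370). *Irak2* rose with differentiation by a log2 change of 1.46 (SE 0.14, adjusted p = 1.91e-04) in WT and 2.85 (SE 0.13, adjusted p = 3.13e-06) in KO.

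*Irak1* had the highest mean of the IRAK genes in every group but KO ESCs. It was 6.26, 6.91 and 7.74 FPKM in WT and 7.39, 5.83 and 6.74 in KO at day 0. At day 14 it was 6.33, 7.39 and 7.52 FPKM in WT and 8.12, 7.88 and 9.05 in KO, so that the KO values lay wholly above the WT values without passing the test (log2 change 0.24, 95% interval -0.04 to 0.51, adjusted p = 0.301). The change with differentiation was a log2 change of 0.02 (adjusted p = 0.880) in WT and 0.33 (SE 0.11, adjusted p = 0.0306) in KO. The KO call was lost on leaving out KO day 0 replicate 2 or 3 or KO day 14 replicate 1 or 3, with adjusted p of 0.0547 to 0.0840.

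*Irak4*, the kinase that starts the cascade, was the lowest of the family in the day 14 groups. It was 0.938, 0.658 and 0.703 FPKM in WT and 0.840, 0.536 and 0.812 in KO at day 0. Day 14 libraries had 1.20, 1.25 and 1.15 FPKM in WT and 0.962, 1.09 and 1.28 in KO. It rose with differentiation in WT (log2 change 0.60, SE 0.20, adjusted p = 0.0380), a call kept without WT day 0 replicate 1 or WT day 14 replicate 3 and lost without any of the other 4 libraries (adjusted p of 0.0847 to 0.127), and gave a like log2 change of 0.56 (SE 0.22, adjusted p = 0.0593) in KO that did not pass.

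As a share of the summed FPKM of the 4 IRAK genes, *Irak3* made up 6.49% (4.66 to 8.63%) in WT ESCs and 54.3% (51.3 to 56.7%) in KO ESCs. In differentiated cells it made up 9.02% (7.74 to 11.2%) in WT and 13.2% (10.2 to 16.1%) in KO. *Irak2* went from 5.19% (4.69 to 5.61%) of the family in KO ESCs to 38.3% (34.3 to 43.5%) in KO cells at day 14, and from 20.7% (19.7 to 21.4%) to 39.1% (37.0 to 40.9%) in WT. *Irak3* had the highest mean of the family in KO ESCs, and *Irak1* in the other 3 groups.

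**Figure D2:**
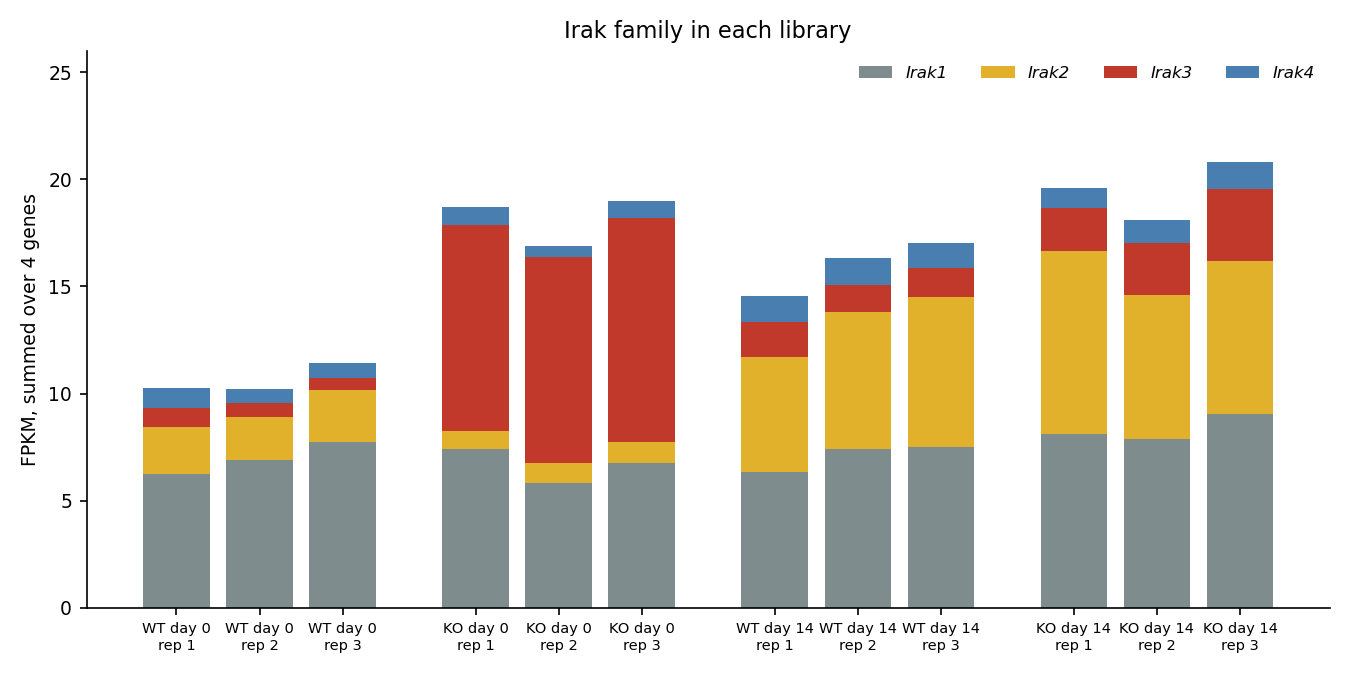
Stacked FPKM of *Irak1*, *Irak2*, *Irak3* and *Irak4* (vertical axis) in each of the 12 libraries (horizontal axis). *Irak3* fills 51.3 to 56.7% of the KO day 0 bars and no more than 16.1% of any other bar.

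*Traf6* stayed between 3.40 and 5.07 FPKM in all 12 libraries. It was 4.81, 4.57 and 3.82 FPKM in WT and 5.00, 4.96 and 5.07 in KO at day 0 (log2 change 0.19, SE 0.09). At day 14 it was 4.10, 4.47 and 3.40 FPKM in WT and 3.43, 4.14 and 4.49 in KO, with a log2 change of 0.01 (95% interval -0.38 to 0.40, adjusted p = 0.978). It fell by 0.32 on the log2 scale with differentiation in KO (SE 0.11, adjusted p = 0.0409), a call lost on leaving out any library but KO day 14 replicate 3 (adjusted p of 0.0653 to 0.105), and gave -0.14 in WT (adjusted p = 0.462).

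Read by comparison, the day 0 contrast of KO with WT chose the genes, so no count of called members is given for it. Of all 19238 genes tested there, 21.4% were called at adjusted p under 0.05, 11.0% higher and 10.4% lower. At day 14, 1 of 10 members was called, *Tlr2*, against 2.34% of 20506 genes, 1.45% higher and 0.883% lower. There 3 of 10 members (*Tlr2*, *Irak1* and *Irak3*) had KO libraries all on one side of the WT libraries, against 26.5% of all genes, so that share is near the background. The 7 members other than these had adjusted p of 0.370 to 0.978. Without WT day 14 replicate 3 the count was again 1 of 10, *Tlr2*, with 13.8% of all genes called. In that fit the KO minus WT log2 change was 1.03 for *Tlr2*, 0.78 for *Irak3*, 0.59 for *Tlr4*, 0.33 for *Irak2*, 0.28 for *Irak1* and 0.25 for *Ticam1*. It was -0.07 for *Tlr3*, -0.10 for *Traf6*, -0.13 for *Irak4* and -0.15 for *Myd88*.

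**Figure D3:**
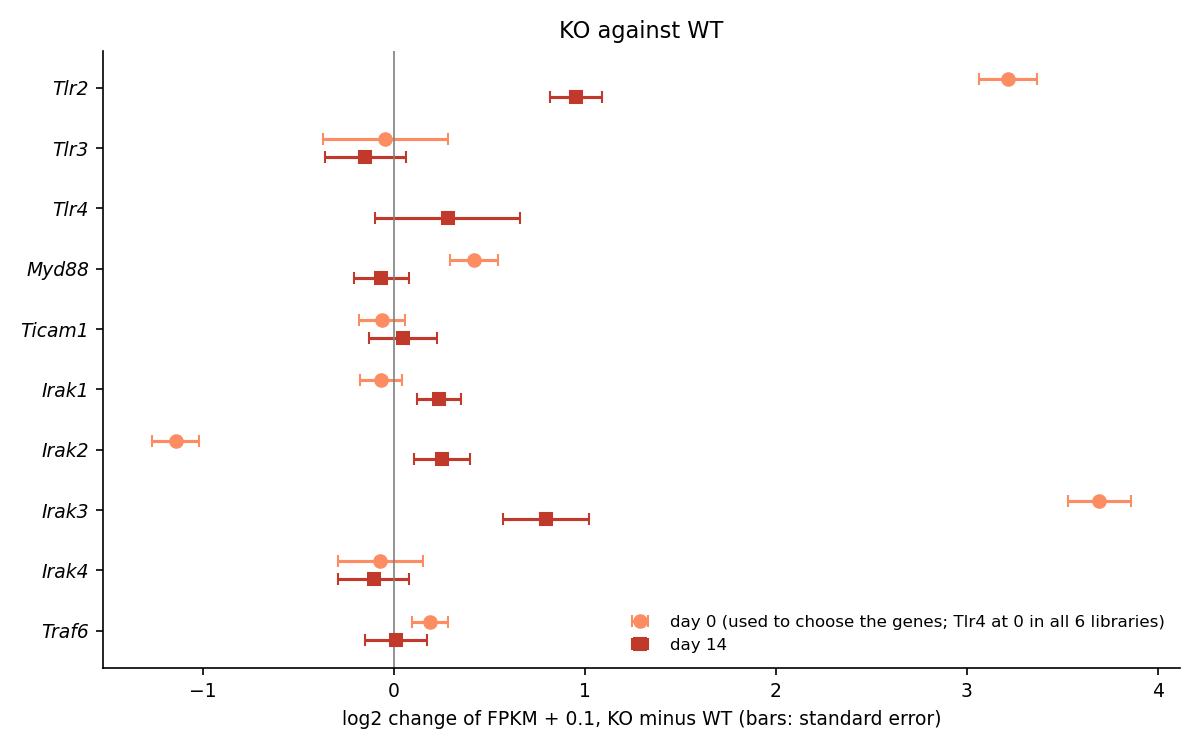
Log2 change of FPKM + 0.1 from WT to KO (horizontal axis, points, with the standard error as bars) for the 10 genes at day 0 (circles) and day 14 (squares), 3 libraries per group. *Tlr2* goes from 3.22 to 0.95 and *Irak3* from 3.70 to 0.80, while *Irak2* goes from -1.14 to 0.25.

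The day 14 change minus the day 0 change is given here without a test, because its day 0 side chose the genes. It was -2.26 (SE 0.21) for *Tlr2*, -2.90 (SE 0.29) for *Irak3* and 1.40 (SE 0.18) for *Irak2* on the log2 scale. For the other 7 members it lay between -0.48 and 0.30. *Tlr2* and *Irak3* were chosen for a high day 0 level in KO, so nothing is read from their smaller change at day 14.

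Among the members tested between the days, 4 were called higher at day 14 in each genotype, *Irak4* in WT only and *Irak1* in KO only. For *Tlr2* and *Irak3*, whose day 0 levels chose the genes, the changes are a description: log2 1.56 and 0.98 in WT, and -0.71 and -1.92 in KO. Of the other 8 members, *Tlr3* and *Tlr4* entered these comparisons only through day 14 libraries, and the remaining 6 had at least 0.1 FPKM in all 3 day 0 libraries of each genotype. Of these 6, *Irak2*, *Irak4*, *Myd88* and *Ticam1* rose and 0 fell in WT, where 57.6% of the 16863 genes with that day 0 level were called, 25.8% higher and 31.8% lower. At an unadjusted p under 0.05, and by voom, 0 of these 6 fell in WT. In KO *Irak1*, *Irak2*, *Myd88* and *Ticam1* rose and *Traf6* fell, where 65.8% of 16814 were called, 29.8% higher and 36.1% lower. Without WT day 14 replicate 3 the same 4 rose and 0 fell in WT. Over all genes tested, without the condition on day 0, 55.5% of 20326 were called in WT, 29.0% higher and 26.4% lower, and 63.3% of 20347 in KO, 33.5% higher and 29.8% lower. The comparisons of KO with WT and of day 14 with day 0 share libraries, so their values are set side by side and not correlated.

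**Figure D4:**
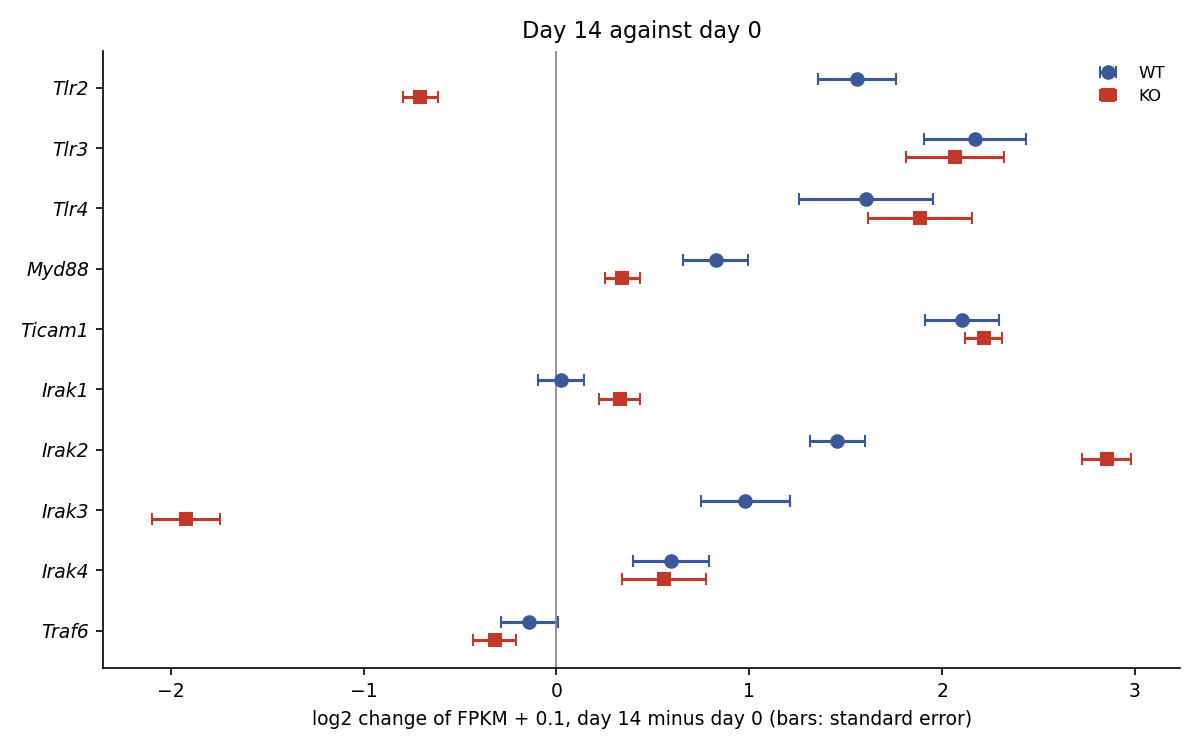
Log2 change of FPKM + 0.1 from day 0 to day 14 (horizontal axis, points, with the standard error as bars) for the 10 genes in WT (circles) and KO (squares), 3 libraries per group. *Tlr2* and *Irak3* lie at 1.56 and 0.98 in WT and at -0.71 and -1.92 in KO. *Tlr3*, *Tlr4*, *Irak1*, *Irak2*, *Irak4*, *Myd88* and *Ticam1* lie above 0 in both genotypes, *Irak1* in WT only at 0.02. *Traf6* lies below 0 in both. *Tlr3* and *Tlr4* entered these comparisons through day 14 libraries.

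Across the rest of the pathway, 85 further genes were followed in 8 lists. In ESCs 58 had enough signal, and 9 were higher and 4 lower in KO, 22.4% against 21.4% of all genes, with a median log2 change of -0.01 against -0.00 for all genes. With FPKM rescaled to TPM, which moved the median of all genes by 0.11, the counts were 4 higher and 0 lower. Inhibitors of the pathway gave 4 higher and 1 lower of 12. *Nfkbie*, an inhibitor that holds NF-κB in the cytoplasm, was higher by a log2 change of 1.49 (SE 0.13, adjusted p = 4.75e-04), at 0.990 to 1.09 FPKM in WT and 2.68 to 3.52 in KO. *Zc3h12a*, an RNase that degrades inflammatory mRNAs, was higher by 1.10 (SE 0.09, adjusted p = 4.63e-04), at 2.98 to 3.45 and 6.50 to 7.78 FPKM. *Tnip1*, a partner of the A20 deubiquitinase, was lower (log2 change -0.44, SE 0.05, adjusted p = 0.00169).

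Upstream of these, *Il1r1*, the interleukin-1 receptor that also signals through MYD88, was higher, at 0.213 to 0.301 FPKM in WT ESCs against 0.534 to 0.702 in KO ESCs (log2 change 1.03, SE 0.21, adjusted p = 0.0153). *Sigirr*, an inhibitory receptor of that family, was higher by a log2 change of 0.37 (SE 0.08, adjusted p = 0.0159), and the adaptor *Tirap* by 0.33 (SE 0.09, adjusted p = 0.0366). Of 16 kinases and ubiquitin enzymes, *Peli1* was higher (log2 change 0.38, adjusted p = 0.00629) and *Traf3* lower (log2 change -0.54, adjusted p = 0.00478). Among 8 transcription factors *Nfkb1* was higher (log2 change 0.27, adjusted p = 0.0352), and 0 of 6 receptor partners passed in limma, with 2 higher and 1 lower at an unadjusted p under 0.05 and 0 by voom.

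Of 20 inflammatory target genes, 9 had enough signal in ESCs, and 0 were higher and 2 lower in KO by limma on FPKM, with 1 higher at an unadjusted p under 0.05 and 0 higher by voom. That is 22.2% called against 21.4% of all genes, 11.0% higher and 10.4% lower, so the share is near the background. The lower ones were *Nfkbiz*, at 1.18 to 1.25 FPKM in WT and 0.525 to 0.734 in KO (a log2 change of -0.84, SE 0.16, adjusted p = 0.0116), and *Csf1*, at 0.220 to 0.340 and 0.0539 to 0.107 (log2 change -1.11, SE 0.27, adjusted p = 0.0293), which had enough signal to be tested through the WT libraries, where it is high. Of the cytokine genes, *Il6*, *Cxcl2*, *Ccl2*, *Ccl5* and *Ccl20* had no fragment in any day 0 library. *Tnf*, *Il1b* and *Cxcl1* had none in KO and hardly any in WT. *Tnf* had 1 fragment, in WT replicate 3, and *Il1b* and *Cxcl1* had 2 each, in WT replicate 2.

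At day 14, 72 of the 85 were tested, and 0 were higher and 1 lower in KO by both limma on FPKM and voom, with 10 higher and 6 lower at an unadjusted p under 0.05. The median log2 change was 0.13 against 0.03 for all genes. The 1 was *Cxcl5*, a neutrophil chemokine, at 2.21 to 2.96 FPKM in WT and 0.490 to 0.850 in KO (a log2 change of -1.88, SE 0.24, adjusted p = 0.0193). This count turned on WT day 14 replicate 3: without it 10 were higher and 4 lower, with 13.8% of all genes called. Leaving out any other day 14 library gave 0 higher and 0 lower.

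Between the days 42 of 71 wider genes were called higher and 11 lower in WT, against 29.0% and 26.4% of all genes, and 43 of 72 higher and 12 lower in KO, against 33.5% and 29.8%. Of the higher ones, 13 in WT and 17 in KO were under 0.1 FPKM in at least 1 day 0 library and so were tested through day 14 libraries. Among the genes at that level in all day 0 libraries, 29 of 57 rose and 11 fell in WT, against 25.8% and 31.8% of all such genes, and 26 of 54 rose and 12 fell in KO, against 29.8% and 36.1%. Other members of the lists were hardly seen on either day: *Il6* had no fragment in any KO day 14 library, and 7 of the 9 other Toll-like receptors were too low to be tested between genotypes at day 14. The monocyte chemokine *Ccl2*, with no fragment at day 0, was at 19.5, 10.3 and 41.1 FPKM in WT replicates 1, 2 and 3 at day 14 and at 19.9 to 29.8 in KO, all above the WT values without replicate 3. The growth factor *Csf1* was at 36.9, 33.3 and 63.7 FPKM in WT and 47.6 to 53.5 in KO, again above the WT values without replicate 3. The prostaglandin synthase *Ptgs2* was at 17.6, 13.1 and 52.9 FPKM in WT and 15.8 to 22.6 in KO. *Nfkbia*, an inhibitor that NF-κB itself induces, rose from 19.5 to 22.6 FPKM to 70.8 to 77.3 in WT (log2 change 1.83, SE 0.08, adjusted p = 8.96e-06) and from 23.8 to 24.6 to 69.6 to 83.8 in KO (a log2 change of 1.66, SE 0.07, adjusted p = 3.46e-06). The adaptor *Sarm1* fell in both, by a log2 change of -1.27 in WT (adjusted p = 0.00187, limma) and -1.33 in KO (adjusted p = 2.12e-04). Myeloid markers moved the same way, 6 higher and 1 lower of 9 tested in WT and 6 and 1 of 8 in KO, 5 of the 6 each time having entered through day 14 libraries, and their part in these rises was not tested.

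Of 73 wider genes tested for a KO effect that differed between the days, 3 had a higher and 4 a lower effect at day 14. That is 9.59% against 7.13% of all 22913 genes, so the share is near the background. *Relb*, an NF-κB subunit (difference 0.78 on the log2 scale, SE 0.14, adjusted p = 0.00837), *Tnip1* (0.69, adjusted p = 0.00405) and *Csf1* (1.33, adjusted p = 0.0298) were the higher ones. *Zc3h12a* (-1.10, SE 0.15, adjusted p = 0.00210), *Peli1* (-0.58, adjusted p = 0.0186), the lipopolysaccharide-binding protein *Lbp* (-1.57, adjusted p = 0.0175) and *Cxcl5* (-1.89, adjusted p = 0.0317) were the lower ones. Without WT day 14 replicate 3, 14 had a higher and 7 a lower effect, 28.8% against 19.1% of all genes.

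The genes whose FPKM followed *Tlr2* most closely over the 12 libraries, of 12899 with a mean of at least 1 FPKM, were *Ttc39c* (Pearson r = 0.968), *Kdelr3* (0.961), *Aldh3a2* (0.959), *Adgre5* (0.958) and *Sh3bgrl3* (0.958). For *Irak3* they were *Cpt1a* (0.982), *Epha4* (0.975), *Pcmtd1* (0.970), *Dusp27* (0.964) and *Mmrn2* (0.958). *Tlr2* and *Irak3* themselves gave 0.916. The 12 points share genotype and day, so that a gene high in KO ESCs scores high by that alone, and these values are a description.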

How the data were processed

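Mouse RNA-seq libraries, 12 in all, were deposited as FPKM per gene. Per the labels and the methods, the authors aligned paired reads to mm10 with HISAT2 2.0.5, counted with featureCounts 1.5.0-p3 and divided by gene length and depth to give the deposited FPKM. The DESeq2 version they used is not given in the sources used here. FPKM were tested as log2(FPKM + 0.1) with limma 3.58.1 (moderated with trend, R 4.3.3) in genes of at least 0.1 FPKM in 3 libraries of a comparison, with Benjamini-Hochberg adjustment over all genes and a threshold of 0.05. A fold change on this scale understates that of low genes. Files were read, sequences searched and figures drawn in Python 3.11.15.

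Each FPKM was a whole number of fragments (tolerance 0.001) for 100% of values, so depth was recovered and voom, with trimmed-mean scaling, was an alternative. Others were a pseudocount of 1, no filter, a filter of 1 FPKM, TPM scaling, library weights, a replicate block, a fit of all 4 groups and leaving out each library. Of 66 pairs of libraries, 0 were identical. Intervals cover the spread between libraries, and floors counting error only. The fits were also run on simulated fragments with the same dispersion for every gene and library. No simulated library stood apart, so that run does not cover a case like WT day 14 replicate 3.

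The members and lists were chosen with earlier results of these data known. Beyond the 10 members, genes named are *Snap29*, *Atrx*, the called genes of each list with the smallest adjusted p (2 per direction between genotypes, 2 between days), markers at 0 or highest, the 5 genes most like *Tlr2* or *Irak3*, and called neighbours within 250 kb. *Tlr12*, *Ptgs2*, the cytokine genes at 0 and the genes called for a KO effect that differed between days were named after their values were seen. Planned tests of the members' change between days of the KO effect, whose day 0 side chose them, and of *Tlr3* and *Tlr4* between days, which passed the filter only through day 14, were not used. *Ticam2*, called between days, passed it only through day 0 and is not described. *Il6* at day 14 was named after its values were seen.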

Additional observations from a re-analysis of the deposited data

How the results depend on the processing

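The counts of called genes moved most between genotypes at day 14. Of the members, 1 was higher; library weights gave 3, the fit of all 4 groups 2, the replicate block 0, and leaving out each library 0 to 1. Of the wider lists, 0 were higher and 1 lower; library weights gave 14 and 7, the fit of all 4 groups 8 and 4, the filter of 1 FPKM 1 higher, the replicate block 0 lower, and leaving out each library 0 to 10 and 0 to 4. At day 0 the 9 higher and 4 lower became 4 and 0 with TPM scaling, 5 higher with the replicate block, 5 higher with all 4 groups, and 3 to 6 and 3 to 4 without each library. Between the days in WT, TPM scaling gave 6 lower wider genes in place of 11. In KO, the 1 lower member became 0 with no expression filter, with the replicate block and with all 4 groups, and 0 to 1 without each library. For the KO effect between days, 3 wider genes were higher and 4 lower: the filter of 1 FPKM gave 6 higher, TPM scaling 1 higher, voom 2 lower, library weights 14 and 8, and leaving out each library 2 to 14 and 2 to 7. The log2 change reversed for 4 members, each near 0 and past the threshold in no alternative run. Between genotypes at day 14, *Ticam1* went from 0.05 to -0.0965 with TPM scaling and ran from -0.0552 to 0.253 without each library, *Traf6* went from 0.01 to -0.134 with TPM scaling, -0.0199 with voom and -0.0318 with library weights and ran from -0.0982 to 0.118, and *Myd88* ran from -0.148 to 0.0595. Between the days in WT, *Traf6* went from -0.14 to 0.0743 with TPM scaling, and *Irak1* from 0.02 to -0.0881 with library weights and -0.0492 to 0.102 without each library. The cause of these changes was not tested. Over all genes, 298 were higher and 181 lower in KO at day 14, with 2 and 11 under the replicate block and 3517 and 2531 under library weights. With TPM scaling the median log2 change of all genes was 0.107 at day 0, in place of -0.004, and -0.111 at day 14, in place of 0.028. It was 0.210 between days in WT, in place of 0.003, and -0.223 for the KO effect between days, in place of 0.019.

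Replicate numbers did not pair the libraries: same-numbered libraries deviated together with correlations of -0.28 to 0.03 across genes. With the block *Tlr2* at day 14 had adjusted p = 0.193 and *Irak4* in WT between the days 0.0753. Depth limited *Tlr3* and *Tlr4*, at 0 to 13 fragments per day 0 library.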

Other observations

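Within 250 kb of *Tlr2*, 1 of 5 genes tested was higher in KO at day 0 and 0 of 4 differed at day 14. It was *Sfrp2*, a secreted Wnt modulator, at a mean of 4.34 FPKM in WT and 10.4 in KO (log2 change 1.27, SE 0.18, adjusted p = 0.00401, limma), and at 3.04 and 3.28 at day 14 (adjusted p = 0.884). Around *Irak3*, 3 of 8 were higher and 1 lower at day 0. *Tmbim4* (log2 change 0.60, SE 0.08, adjusted p = 0.00252), the helicase gene *Helb* (0.47, SE 0.05, adjusted p = 0.00162) and *Gm47009* (1.89, SE 0.49, adjusted p = 0.0359) were higher, the last of them tested through KO libraries (a mean of 0.0647 FPKM in WT and 0.445 in KO). *Hmga2*, a chromatin protein of early development, was lower at both days, at a mean of 6.12 FPKM in WT and 4.74 in KO at day 0 (log2 change -0.36, SE 0.06, adjusted p = 0.00859) and 10.8 and 5.16 at day 14 (log2 change -1.03, SE 0.16, adjusted p = 0.0309). At day 0, 21.4% of all genes were called.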
